A study of Arabidopsis thaliana with 8 samples.

Results

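The msh1 and wild-type floral stems of Arabidopsis thaliana, accession Columbia-0, were compared in the RNA that co-purified with tagged ribosomes. The members were chosen by sample title: 4 of the 8 libraries in the series, 2 of msh1 TRAP and 2 of WT TRAP, with all 32548 nuclear loci of the deposited tables. The 2 msh1 Total and 2 WT Total libraries, made from whole floral stem RNA, served as a second comparison and shared the estimate of spread. TRAP, translating ribosome affinity purification, captures ribosomes through an epitope on a ribosomal protein and recovers the transcripts bound to them. The construct named for the series is MSH1P::FLAG::RPL18, which puts FLAG-tagged RPL18 under the MSH1 promoter, so captured ribosomes should come from cells in which that promoter is active. Whether the Total plants also carried the construct is not given, nor are the msh1 allele, plant age, harvest time or number of plants per library. All plants grew at 22 °C in days of 16 h, and no treatment is named.

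MSH1 encodes a MutS homologue that is imported into plastids and mitochondria, where it suppresses recombination between short repeats of the organelle genomes. Plants without it are known for variegation, altered growth and stress-like expression states, and respiratory defects are sensed in the nucleus through mitochondrial retrograde signalling. That pathway releases membrane-anchored NAC transcription factors, which bind the mitochondrial dysfunction motif of their target promoters.

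Nuclear gene counts summed to 7978556 and 9712422 in msh1 TRAP, 7568728 and 10816397 in WT TRAP, and 10067810 to 13611280 in Total. Of the nuclear loci, 21202 passed the filter on low counts and were tested with edgeR's quasi-likelihood test. A gene was called at an adjusted p below 0.05, and levels are given in CPM, counts scaled to a common library size after TMM normalization. The labels call the replicates biological, without naming separate plants. Each comparison rests on 2 libraries a group, and its p-values use a spread estimated over all 8 libraries. The first principal component held 53% of the variance and placed msh1 TRAP at -62.0 and -92.5, against 37.5 and 52.3 for WT TRAP. The median absolute log2 difference between replicates was 0.322 in msh1 TRAP and 0.242 in WT TRAP, against 0.165 in msh1 Total and 0.142 in WT Total. The shared estimate of spread thus covers groups of unequal scatter, and counts with each kind of RNA fitted alone are given below.

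MSH1 (AT3G24320), on chromosome 3 from 8822924 to 8829728 (TAIR10.1, minus strand), had 36.3 and 22.5 CPM in msh1 TRAP, against 12.3 and 14.0 CPM in WT TRAP. Both msh1 libraries lay above both WT libraries (log2 fold change 1.15 ± 0.22, adjusted p = 0.00135), and in Total the log2 fold change was 1.63 ± 0.22, adjusted p = 0.000972. The allele is not given, so the transcript level does not check the genotype, and the libraries are named by their labels. RPL18 (AT3G05590), the ribosomal protein used as the tag, had 849 and 1862 CPM in msh1 TRAP, against 278 and 269 CPM in WT TRAP. It rose in msh1 TRAP (log2 fold change 2.31 ± 0.28, adjusted p = 9.46e-05), while in Total the log2 fold change was 0.25 ± 0.27, adjusted p = 0.728, and the 2 effects differed (2.06 ± 0.39, adjusted p = 0.00597). Reads of the transgene and the endogenous gene cannot be told apart here.

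In TRAP, 8818 of 21202 genes changed between msh1 and WT, which is 41.6% of those tested. Of these, 4400 rose (20.8% of all tested) and 4418 fell (20.8%). At least 2-fold changes made up 2029 rises (9.57%) and 1952 falls (9.21%). The 2 msh1 TRAP libraries both lay above both WT TRAP libraries in 32.6% of genes tested, and both below in 34.8%. Such separation is therefore common, and it was a condition for choosing the genes of the 15 largest rises and 15 largest falls, so where it is stated below it only describes the libraries. In Total, 824 genes changed (3.89%), 174 upwards (0.821%) and 650 downwards (3.07%). The lists shared 117 rises, which were 2.66% of the TRAP rises and 67.2% of the Total rises. They shared 500 falls, 11.3% of the TRAP falls and 76.9% of the Total falls, and 22 genes were called in opposite directions. Leaving out WT TRAP replicate 2 left 5835 TRAP calls. Total calls numbered 219 to 1650 when 1 library was left out, fewest without msh1 Total replicate 1 and most without msh1 TRAP replicate 1. They numbered 2708 (1030 higher, 1678 lower) when the 4 Total libraries were fitted alone and 1770 (517 higher, 1253 lower) with no filter on low counts. When the 4 TRAP libraries were fitted alone, TRAP calls numbered 6771 (3476 higher, 3295 lower).

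The direction of change in TRAP went with transcript length. Genes that rose had a median annotated transcript of 1221 nt, genes that fell 2416.5 nt, and all genes tested 1724.5 nt. Among transcripts under 1000 nt, 36.4% rose and 9.03% fell, whereas 1.26% rose and 66.9% fell among those of 4000 nt or more. The median log2 fold change ran from 0.49 in the shortest class to -0.78 in the longest, compared with 0.06 and -0.10 in Total. With this trend fitted and removed, 4138 genes rose (19.5%) and 2819 fell (13.3%), 3262 of the rises and 2424 of the falls were retained, and 2 calls reversed. What set the trend was not tested, and values with the trend removed are given below where they end a call.

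**Figure D1:**
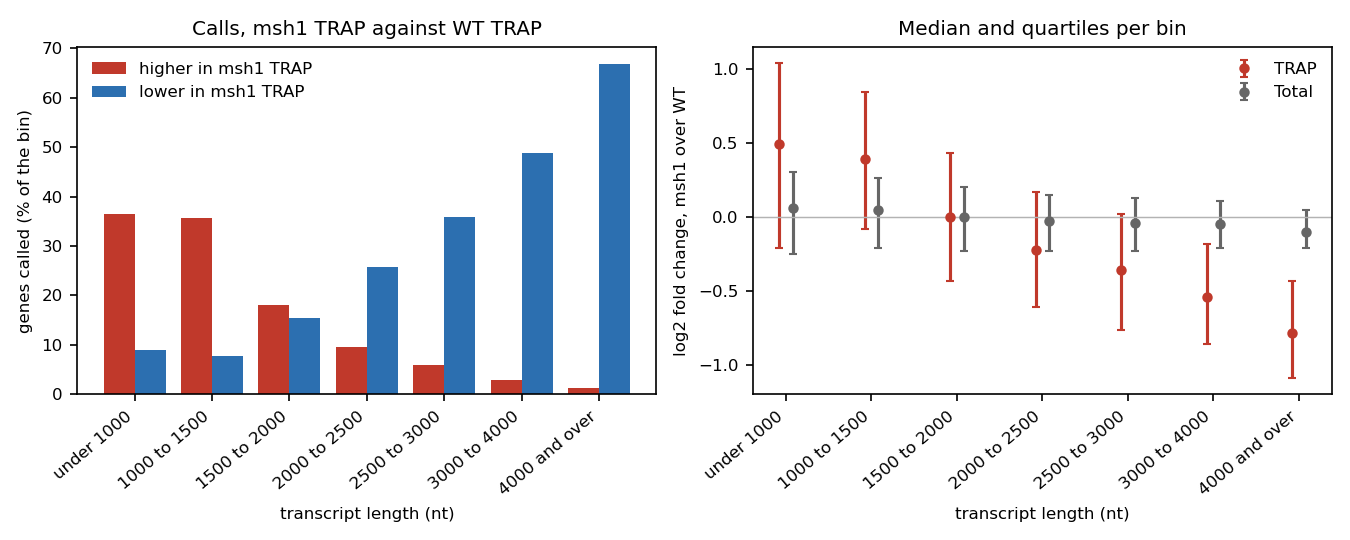
Transcript length and the change in msh1. Left, percent of genes in each length class (nt) that rose (red) or fell (blue) in msh1 TRAP; right, median log2 fold change with quartiles in TRAP (red) and Total (grey): calls shift from 36.4% rising under 1000 nt to 66.9% falling at 4000 nt or more.

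The steepest rises of the mitochondrial dysfunction list were those of 3 genes that also rose in Total. NDB4 (AT2G20800), an external alternative NAD(P)H dehydrogenase of the mitochondrial inner membrane, had 10.7 and 12.01 CPM in msh1 TRAP, against 0 and 0.304 CPM in WT TRAP. UPOX (AT2G21640), a mitochondrial protein induced by oxidative stress, had 70.1 and 96.8 CPM in msh1 TRAP, against 2.57 and 1.92 CPM in WT TRAP. AT12CYS-2 (AT5G09570), a twin-cysteine protein induced when respiration is impaired, had 23.7 and 34.4 CPM in msh1 TRAP, against 0.385 and 1.22 CPM in WT TRAP. The groups stood far apart in all 3 genes, with WT TRAP close to or below 2.57 CPM.

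The counts of NDB4, 186 in msh1 TRAP and 3 in WT TRAP, gave a ratio of 67 (95% counting interval 22.6 to 328). UPOX rose with a log2 fold change of 5.23 ± 0.25, adjusted p = 1.06e-06, and AT12CYS-2 with 5.09 ± 0.35, adjusted p = 1.67e-05. In Total the log2 fold changes were 4.02 ± 0.23, adjusted p = 9.74e-06 for UPOX and 3.65 ± 0.31, adjusted p = 7.73e-05 for AT12CYS-2. The effect on UPOX was larger in TRAP than in Total (1.21 ± 0.36, adjusted p = 0.0426).

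To show where the recognition motif of the pathway lies, the stretches around each match in the 300 bases upstream of the annotated gene start are printed for UPOX, NDB3, NDA1 and NDB2, from the RefSeq TAIR10.1 genome. Capitals mark matches to the 2 searched forms of the mitochondrial dysfunction motif on either strand, and each line reads 5′ to 3′ on the gene's strand.
UPOX, chr2:9254278-9254377, plus strand: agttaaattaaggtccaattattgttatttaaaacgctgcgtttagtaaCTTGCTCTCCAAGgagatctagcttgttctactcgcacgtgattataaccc
NDB3, chr4:11439577-11439676, minus strand: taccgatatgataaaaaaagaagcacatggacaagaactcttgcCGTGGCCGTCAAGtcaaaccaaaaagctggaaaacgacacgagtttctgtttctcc
NDA1, chr1:2203990-2204089, plus strand: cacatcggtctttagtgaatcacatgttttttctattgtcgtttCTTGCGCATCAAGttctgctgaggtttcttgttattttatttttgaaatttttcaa
NDB2, chr4:2572304-2572403, plus strand: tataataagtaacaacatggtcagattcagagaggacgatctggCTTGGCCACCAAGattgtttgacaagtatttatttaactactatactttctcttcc

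A match was present upstream of 5 of the 15 list members tested (33.3%), against 236 of all 21201 windows (1.11%). The fifth member was NAC017. The list holds known genes of this response, so these shares describe the windows and are no independent test of the motif. The genes shown include members that rose and members that fell, and these letters were not found in the windows of NDB4 and AT12CYS-2.

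Over the whole list, 7 of 15 tested members rose (46.7%) and 4 fell (26.7%), against 20.8% each way over all genes. The median log2 fold change was 0.47, against -0.02 over all genes tested, and it was 0.26 without msh1 TRAP replicate 2, 0.21 without WT TRAP replicate 1 and 0.89 without WT TRAP replicate 2. In Total 7 of the 15 rose and 1 fell (median 0.77), where 0.821% of all genes rose and 3.07% fell. NDB3 (AT4G21490), another external dehydrogenase, had 2.04 and 3.06 CPM in msh1 TRAP, against 0.513 and 0.608 CPM in WT TRAP (log2 fold change 2.16 ± 0.56, adjusted p = 0.00872). NAC013 (AT1G32870), a membrane-bound regulator of the pathway, had 22.4 and 21.9 CPM in msh1 TRAP, against 11.7 and 12.3 CPM in WT TRAP (log2 fold change 0.89 ± 0.18, adjusted p = 0.00196). NAC013 rose in Total too (1.11 ± 0.18, adjusted p = 0.00384). AOX1A (AT3G22370), the main stress-induced alternative oxidase, had 49.4 and 61.7 CPM in msh1 TRAP, against 35.8 and 44.1 CPM in WT TRAP (log2 fold change 0.47 ± 0.16, adjusted p = 0.0332). The groups did not overlap in these 3 genes, as in 32.6% of all genes tested, and the 3 were named to complete the count.

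The glutathione S-transferase gene GSTU24 (AT1G17170) rose as well, with 4.97 and 5.53 CPM in msh1 TRAP, against 1.54 and 1.72 CPM in WT TRAP (log2 fold change 1.67 ± 0.40, adjusted p = 0.00532). NDB3 fell short of the threshold without 1 of msh1 TRAP replicate 2 and WT TRAP replicate 2 (log2 fold change 1.78 to 2.32, adjusted p = 0.0539 to 0.0721). AOX1A fell short without 1 of msh1 TRAP replicate 2, WT TRAP replicate 1, msh1 Total replicate 1, msh1 Total replicate 2, WT Total replicate 1 and WT Total replicate 2 (log2 fold change 0.26 to 0.48, adjusted p = 0.0533 to 0.239) and when TRAP was fitted alone (adjusted p = 0.107).

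The members that fell were NDA1 (AT1G07180) and NDB2 (AT4G05020), an internal and an external dehydrogenase, the outer-membrane ATPase gene OM66 (AT3G50930) and the carrier gene DIC2 (AT4G24570). NDA1 had 7.90 and 6.59 CPM in msh1 TRAP, against 14.0 and 22.1 CPM in WT TRAP (log2 fold change -1.33 ± 0.24, adjusted p = 0.00103), and NDB2 had 15.8 and 17.1 CPM in msh1 TRAP, against 25.02 and 35.4 CPM in WT TRAP (log2 fold change -0.88 ± 0.19, adjusted p = 0.00312). NDA1 was also the 1 member that fell in Total (-0.88 ± 0.22, adjusted p = 0.0472). The respiratory bypass genes thus moved in both directions, NDB4 and NDB3 upwards and NDA1 and NDB2 downwards. OM66 changed by -0.88 ± 0.21, adjusted p = 0.00521, and DIC2 by -1.31 ± 0.44, adjusted p = 0.0307, on the log2 scale.

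NDB2 fell short without WT TRAP replicate 2 (log2 fold change -0.58, adjusted p = 0.0556). OM66 fell short without WT TRAP replicate 1 (log2 fold change -0.64, adjusted p = 0.0553) and with the length trend removed (-0.51, adjusted p = 0.0803). DIC2 fell short without 1 of msh1 TRAP replicate 2, WT TRAP replicate 1 and WT TRAP replicate 2 (log2 fold change -1.51 to -0.91, adjusted p = 0.0669 to 0.197) and by DESeq2 (adjusted p = 0.127). The count of falling members was 2 without either WT TRAP library.

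**Figure D2:**
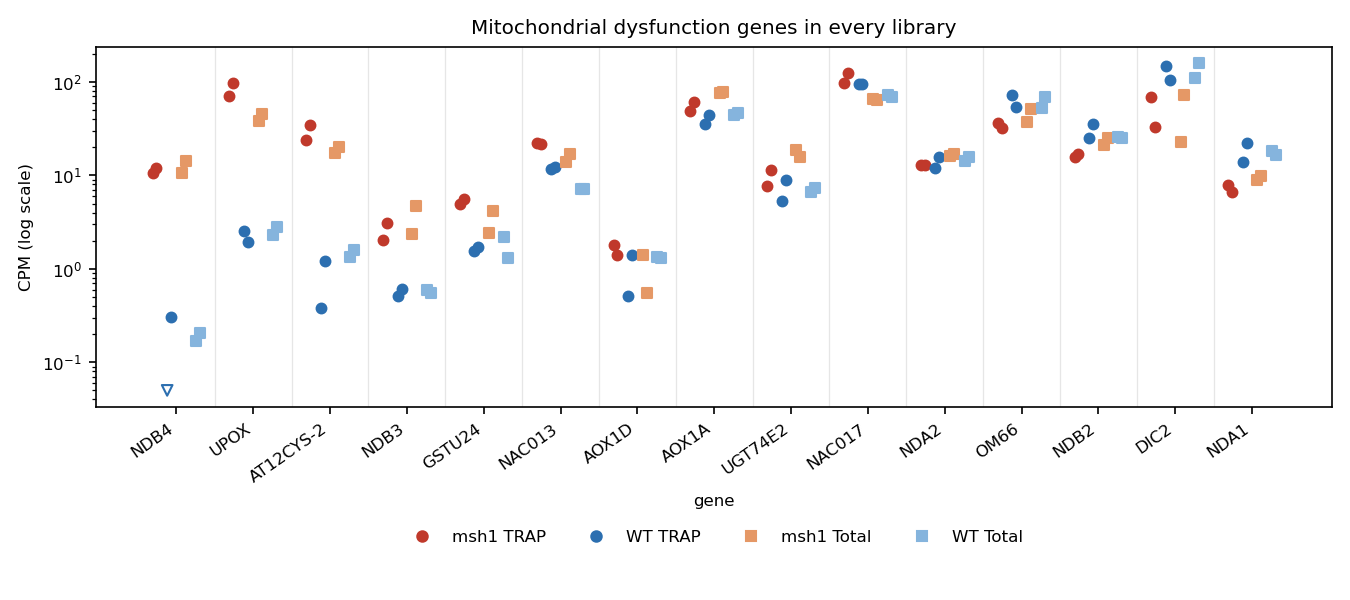
Levels of the 15 tested mitochondrial dysfunction genes in CPM on a log axis, 1 symbol per library, in msh1 TRAP, WT TRAP, msh1 Total and WT Total; genes run from the largest rise to the largest fall in TRAP. An open triangle at 0.05 marks a library with 0 counts; NDB4, UPOX and AT12CYS-2 separate by genotype in both kinds of RNA.

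Other genes among the steepest rises were NAC044 (AT3G01600), SDR4 (AT3G29250) and TOM7-2 (AT1G64220). NAC044, a NAC factor known from the response to DNA damage, had 10.6 and 10.2 CPM in msh1 TRAP, against 0.385 and 0.203 CPM in WT TRAP (log2 fold change 5.14 ± 0.44, adjusted p = 3e-05). TOM7-2, a subunit of the protein import complex of the mitochondrial outer membrane, had 3.69 and 7.07 CPM in msh1 TRAP, against 0.641 and 0.507 CPM in WT TRAP (log2 fold change 3.22 ± 0.47, adjusted p = 0.000279). SDR4, annotated as an NAD(P)-binding Rossmann-fold protein, rose by 3.90 on the log2 scale. All 3 also rose in Total (4.33 ± 0.41, adjusted p = 0.000191 for NAC044, 1.85 ± 0.40, adjusted p = 0.0233 for TOM7-2 and 2.64 ± 0.35, adjusted p = 0.00099 for SDR4).

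AT5G51440, annotated as an HSP20-like chaperone and chosen after its values were seen, had 11.1 and 11.5 CPM in msh1 TRAP, against 0.385 and 0.709 CPM in WT TRAP (log2 fold change 4.3 ± 0.35, adjusted p = 2.73e-05). Both msh1 libraries were far above both WT libraries.

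**Figure D3:**
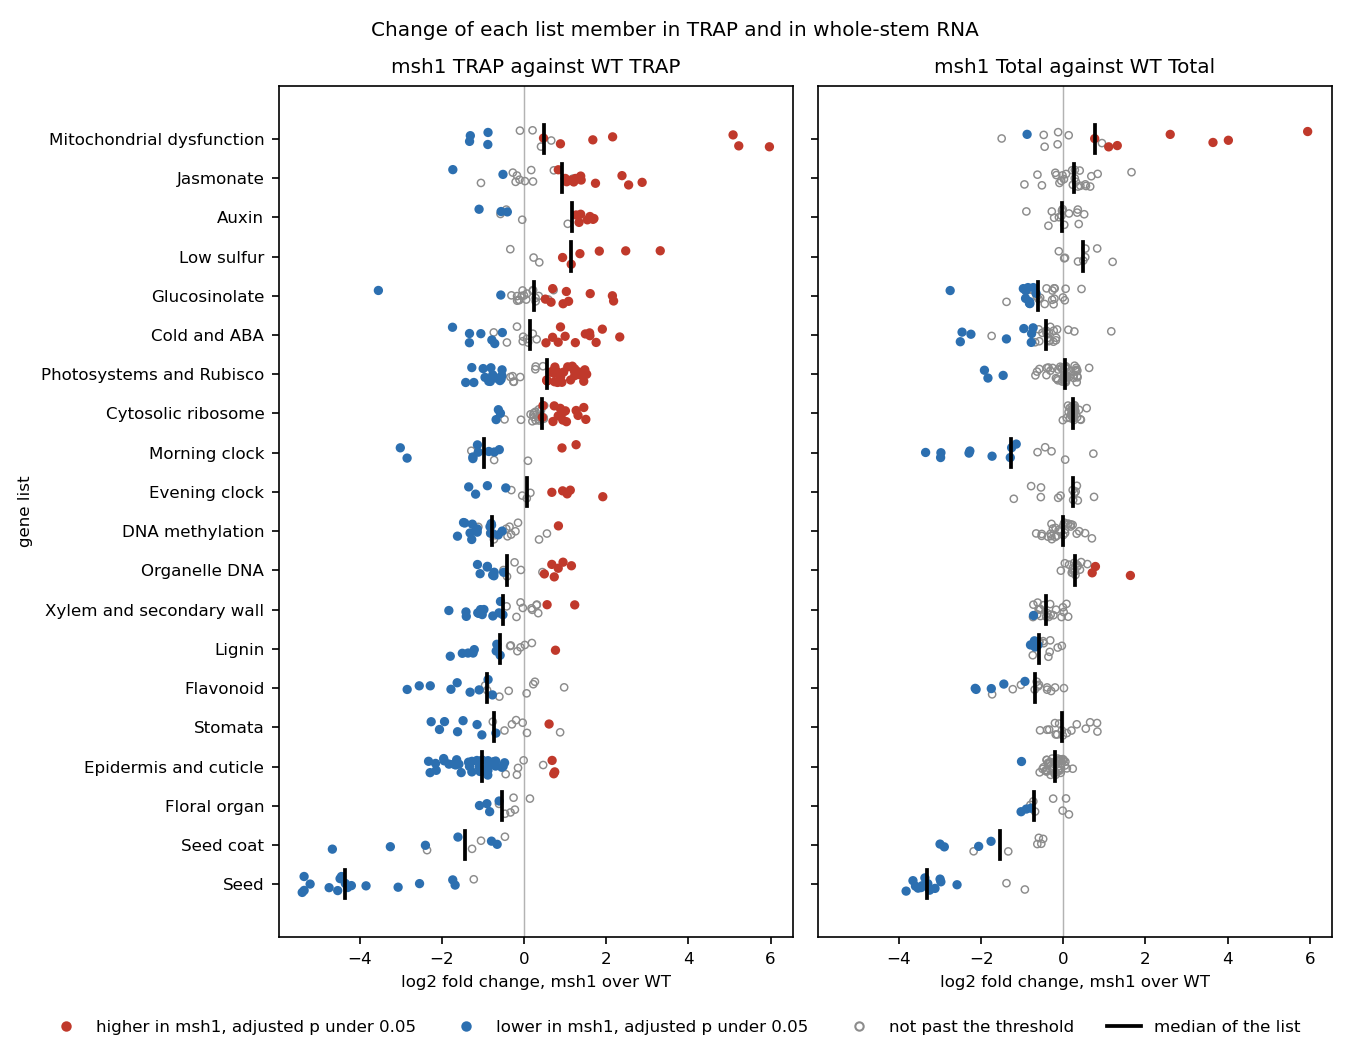
log2 fold change (msh1 over WT) of every tested member of 20 gene lists, in TRAP (left) and in Total (right). Filled symbols passed an adjusted p of 0.05 (red higher, blue lower), open symbols did not, and bars mark list medians; the seed list is lowest in both panels, and the epidermis list is displaced mainly in TRAP, with medians of -1.02 in TRAP and -0.20 in Total.

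Many of the steepest falls were of seed transcripts. Cruciferins, napin-type albumins and oleosins are the storage and oil-body proteins of maturing embryos. Of 17 tested genes of the seed list 16 fell (94.1%, against 20.8% of all tested), with a median log2 fold change of -4.35. CRA1 (AT5G44120), a cruciferin gene, had 14.0 and 8.01 CPM in msh1 TRAP, against 269.6 and 627 CPM in WT TRAP. CRU3 (AT4G28520) had 10.4 and 9.07 CPM in msh1 TRAP, against 227 and 571 CPM in WT TRAP. OLEO2 (AT5G40420), an oleosin gene, had 0.764 and 0.353 CPM in msh1 TRAP, against 16.7 and 30.5 CPM in WT TRAP. Every msh1 library was well below every WT library, and the WT libraries differed among themselves, with replicate 2 the higher one.

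Summed over the list, the level was 73.9 and 58.8 CPM in msh1 TRAP, against 986.6 and 2126 CPM in WT TRAP, and 127.6 and 309.7 CPM in msh1 Total, against 2610 and 2173 CPM in WT Total. CRA1 fell by 5.35 on the log2 scale (± 0.49, adjusted p = 3.4e-05), and CRU2 (AT1G03880) changed by -5.21 ± 0.58, adjusted p = 6e-05. OLEO2 changed by -5.40 ± 0.51, adjusted p = 3.64e-05, and the albumin gene SESA4 (AT4G27170) by -4.48 ± 0.38, adjusted p = 3e-05. In Total 15 of 17 fell, against 3.07% of all genes tested, with a median of -3.32. The tissue is labelled floral stem, and WT libraries thus held transcripts of maturing seed. Fewer cells of a type and less RNA per cell cannot be told apart in bulk samples, and the part of seed tissue in other changes was not tested.

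Other steep falls were also found in Total. FAE1 (AT4G34520) (KCS18), a fatty acid elongase of seeds, had 0 and 0.471 CPM in msh1 TRAP, against 3.34 and 8.31 CPM in WT TRAP (log2 fold change -4.54 ± 0.79, adjusted p = 0.000772). PAP85 (AT3G22640), a vicilin-like cupin, had 0.637 and 0.235 CPM in msh1 TRAP, against 13.7 and 34.4 CPM in WT TRAP (log2 fold change -5.79 ± 0.60, adjusted p = 4.83e-05). ATS1 (AT4G26740), a peroxygenase gene, and CSY1 (AT3G58740), a peroxisomal citrate synthase gene, changed by -4.66 and -4.96 on the log2 scale. The homeodomain gene HDG3 (AT2G32370) changed by -5.45, and GA20OX3 (AT5G07200), a gibberellin 20-oxidase gene, by -4.58. All 6 fell in Total too, where their adjusted p-values were 0.000286 to 0.0158.

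GAMT1 and CYP86B1 were close to absent in msh1 TRAP. GAMT1 (AT4G26420), a gibberellin methyltransferase gene, had 1 count over both msh1 TRAP libraries and 119 over both WT TRAP libraries, a ratio of WT over msh1 of 110 (95% counting interval 19.4 to 4380). CYP86B1 (AT5G23190), a fatty acid hydroxylase of suberin synthesis, had 1 and 93 counts, a ratio of 86 (15.1 to 3430).

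Of 10 seed coat genes, 6 fell (60%, against 20.8% of all tested) and none rose, with a median of -1.44, and -0.94 without WT TRAP replicate 2. In Total 4 of the 10 fell, against 3.07% of all genes, and none rose (median -1.55). TT10 (AT5G48100), a laccase that browns the seed coat, had 1.15 and 0.824 CPM in msh1 TRAP, against 16.8 and 33.1 CPM in WT TRAP (log2 fold change -4.67 ± 0.48, adjusted p = 4.59e-05). BAN (AT1G61720), the anthocyanidin reductase of tannin synthesis, had 2.55 and 1.53 CPM in msh1 TRAP, against 10.9 and 27.5 CPM in WT TRAP (log2 fold change -3.25 ± 0.52, adjusted p = 0.000458). The ovule identity gene STK (AT4G09960) changed by -2.40 ± 0.39, adjusted p = 0.000487 on the log2 scale, and SHP2 (AT2G42830) by -1.61 ± 0.41, adjusted p = 0.0077. SHP2, which overlaps another locus and is uncertain, fell short without WT TRAP replicate 2 (log2 fold change -1.11, adjusted p = 0.121).

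Of 10 floral organ genes, 4 fell (40%, against 20.8%) and none rose (median -0.53, and -0.21 without WT TRAP replicate 2). In Total 3 of the 10 fell, against 3.07% of all genes, and none rose (median -0.71). AG (AT4G18960), which specifies stamens and carpels, had 6.11 and 4.71 CPM in msh1 TRAP, against 8.98 and 13.8 CPM in WT TRAP (log2 fold change -1.08 ± 0.26, adjusted p = 0.0056). SEP2 (AT3G02310), SEP3 (AT1G24260) and AP3 (AT3G54340), further organ identity genes, changed by -0.90, -0.61 and -0.84. Both msh1 TRAP libraries lay below both WT TRAP libraries in all 4. None of the 4 passed without WT TRAP replicate 2, where the log2 fold changes were -0.71 for AG, -0.56 for SEP2, -0.36 for SEP3 and -0.21 for AP3. Without msh1 TRAP replicate 1, 2 of the 4 passed.

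Most epidermis and cuticle genes fell in TRAP. The stem epidermis makes cutin and waxes, and 31 of 39 genes of this list fell (79.5%, against 20.8% of all tested), 3 rose, and the median log2 fold change was -1.02. Leaving out msh1 TRAP replicate 2 left 1 of the rises. CYP96A15 (AT1G57750), the midchain alkane hydroxylase of wax synthesis, had 51.1 and 33.6 CPM in msh1 TRAP, against 153 and 223 CPM in WT TRAP (log2 fold change -2.15 ± 0.23, adjusted p = 5e-05). CYP77A6 (AT3G10570), a cutin hydroxylase, had 12.1 and 6.24 CPM in msh1 TRAP, against 31.2 and 59.8 CPM in WT TRAP (log2 fold change -2.32 ± 0.34, adjusted p = 0.000251). CYP86A7 (AT1G63710), an omega-hydroxylase gene, had 3.44 and 3.89 CPM in msh1 TRAP, against 14.0 and 18.24 CPM in WT TRAP (log2 fold change -2.14 ± 0.24, adjusted p = 5.99e-05). The 2 genotypes did not overlap in these genes.

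KCS2 (AT1G04220), a wax elongase gene that overlaps an antisense locus and is uncertain, changed by -2.29 ± 0.29, adjusted p = 0.000124. In Total 1 of 39 fell, where 3.07% of all genes fell, and the median was -0.20. The effect was lower in TRAP than in Total for 21 of the 39 by its own test, against 6.61% of all genes. CYP96A15 was among them by that test (-1.79 ± 0.31, adjusted p = 0.00445). With the length trend removed, 26 of 39 fell and none rose, with a median of -0.74.

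The regulators of epidermal identity, ATML1 (AT4G21750) and PDF2 (AT4G04890), passed the threshold at smaller changes. ATML1 had 46.5 and 41.6 CPM in msh1 TRAP, against 64.5 and 77.7 CPM in WT TRAP (log2 fold change -0.69 ± 0.15, adjusted p = 0.00344), and PDF2 had 87.6 and 69.2 CPM in msh1 TRAP, against 105 and 123 CPM in WT TRAP (log2 fold change -0.54 ± 0.16, adjusted p = 0.0159). With the length trend removed their log2 fold changes were 0.01 and 0.01 (adjusted p = 0.973 and 0.958). PDF2 fell short without WT TRAP replicate 2 (log2 fold change -0.40, adjusted p = 0.118) and with TRAP fitted alone (adjusted p = 0.0659).

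The 3 members that rose encode lipid transfer proteins, LTP1 (AT2G38540), LTPG1 (AT1G27950) and LTPG2 (AT3G43720). LTPG2 had 55.0 and 60.1 CPM in msh1 TRAP, against 31.6 and 38.0 CPM in WT TRAP (log2 fold change 0.72 ± 0.15, adjusted p = 0.00213), and LTP1 and LTPG1 changed by 0.68 and 0.75. None of the 3 passed with the length trend removed. LTP1 fell short without 1 of msh1 TRAP replicate 2 and WT TRAP replicate 1 (log2 fold change 0.33 to 0.49, adjusted p = 0.125 to 0.184), and LTPG1 fell short without 1 of msh1 TRAP replicate 2 and WT TRAP replicate 1 (log2 fold change 0.34 to 0.45, adjusted p = 0.187 to 0.284). With TRAP fitted alone LTP1 had an adjusted p of 0.0613.

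Among 16 stomatal genes 8 fell (50%, against 20.8%) and 1 rose (median -0.72, and -0.47 without msh1 TRAP replicate 2). KAT2 (AT4G18290), a guard cell potassium channel, had 1.53 and 1.18 CPM in msh1 TRAP, against 6.42 and 6.59 CPM in WT TRAP (log2 fold change -2.26 ± 0.35, adjusted p = 0.000374). SLAC1 (AT1G12480), the guard cell anion channel, had 2.80 and 3.65 CPM in msh1 TRAP, against 12.1 and 14.9 CPM in WT TRAP (log2 fold change -2.06 ± 0.25, adjusted p = 9.55e-05), and it overlaps another locus. SDD1 (AT1G04110), a protease that limits stomatal density, had 3.31 and 1.65 CPM in msh1 TRAP, against 5.004 and 9.93 CPM in WT TRAP (log2 fold change -1.62 ± 0.40, adjusted p = 0.00622), and in Total its log2 fold change was 0.82 ± 0.32, adjusted p = 0.2094. The receptor kinase gene ERL1 (AT5G62230) changed by -1.48 ± 0.33, adjusted p = 0.00342. In all 4 genes the msh1 libraries were the lower ones.

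SDD1 fell short without 1 of msh1 TRAP replicate 2 and WT TRAP replicate 2 (log2 fold change -1.24 to -1.0, adjusted p = 0.0528 to 0.111), and ERL1 fell short without WT TRAP replicate 2 (log2 fold change -0.91, adjusted p = 0.061). The list's count of falls was 4 without msh1 TRAP replicate 2 and 2 without WT TRAP replicate 2. In Total no stomatal gene was called (median -0.02).

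**Figure D4:**
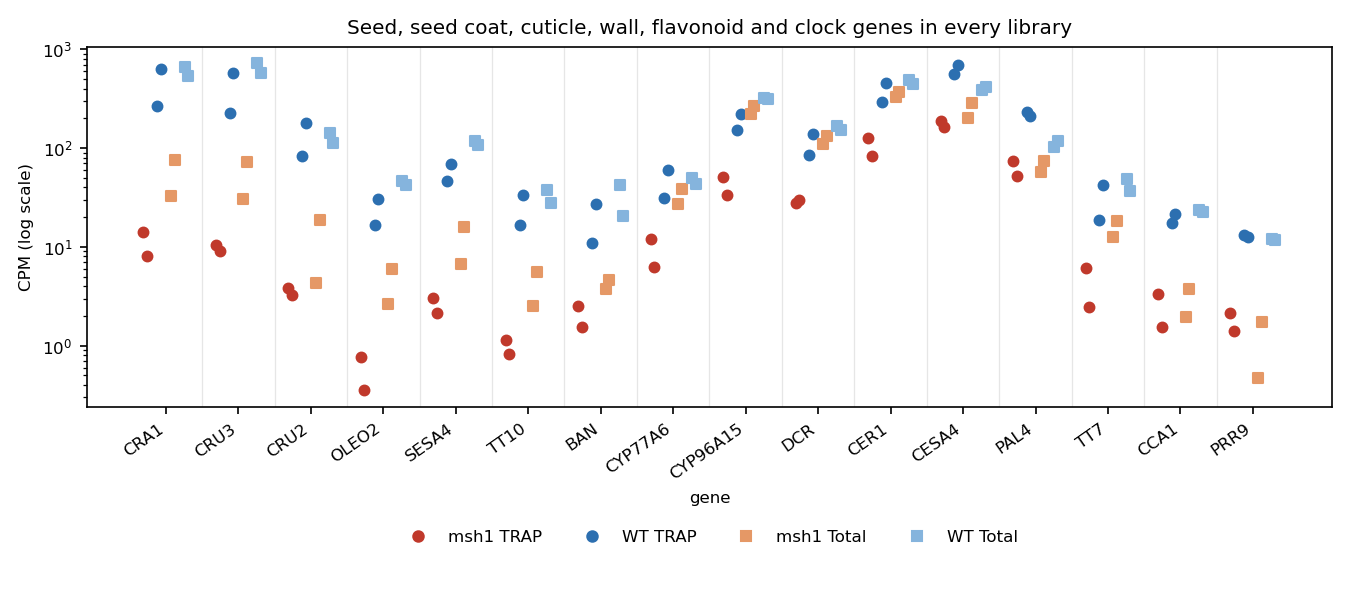
Levels in CPM on a log axis, 1 symbol per library, of seed, seed coat, cuticle, wall, flavonoid and clock genes in msh1 TRAP, WT TRAP, msh1 Total and WT Total. In seed and clock genes both msh1 kinds of library are low, with CRA1 at 14.0 and 8.01 CPM in msh1 TRAP against 269.6 and 627 CPM in WT TRAP, and in the cuticle genes (CYP77A6 to CER1) the msh1 TRAP libraries stand apart from the other 6.

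Of 23 xylem and secondary wall genes 12 fell (52.2%, against 20.8% of all tested) and 2 rose (median -0.51), and of 15 lignin genes 8 fell (53.3%) and 1 rose (median -0.58). No xylem gene rose without msh1 TRAP replicate 2, and 1 rose without WT TRAP replicate 1 or WT TRAP replicate 2. CESA4 (AT5G44030), a cellulose synthase of secondary walls, had 189 and 164 CPM in msh1 TRAP, against 562 and 695 CPM in WT TRAP (log2 fold change -1.83 ± 0.20, adjusted p = 5.48e-05). Its partners CESA7 (AT5G17420) and CESA8 (AT4G18780) changed by -1.41 ± 0.17, adjusted p = 7.85e-05 and -1.41 ± 0.18, adjusted p = 0.000106. IRX14 (AT4G36890), a xylan synthesis gene, changed by -1.13 ± 0.21, adjusted p = 0.00115.

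PAL4 (AT3G10340), a phenylalanine ammonia-lyase that feeds the pathway, had 74.8 and 52.8 CPM in msh1 TRAP, against 234 and 208.9 CPM in WT TRAP (log2 fold change -1.80 ± 0.20, adjusted p = 5.9e-05). PAL1 (AT2G37040), PAL2 (AT3G53260) and C4H (AT2G30490), which act at the same first steps, changed by -1.5, -1.36 and -1.24. The msh1 and WT groups were separate in each of these 8 genes. In Total 1 of 23 xylem genes and 5 of 15 lignin genes fell, where 3.07% of all genes fell. The medians in Total were -0.42 and -0.58. The effect was more negative in TRAP than in Total for CESA4 (-1.10 ± 0.27, adjusted p = 0.0195) and PAL1 (-0.82 ± 0.22, adjusted p = 0.0254).

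Of 17 flavonoid genes 9 fell in TRAP (52.9%, against 20.8%, median -0.90) and none rose. In Total 5 fell, where 3.07% of all genes fell, and none rose (median -0.70). The TRAP median was -0.53 without WT TRAP replicate 2. TT7 (AT5G07990), the flavonoid 3′-hydroxylase, had 6.11 and 2.47 CPM in msh1 TRAP, against 18.7 and 41.9 CPM in WT TRAP (log2 fold change -2.84 ± 0.43, adjusted p = 0.000311). DFR (AT5G42800), the entry enzyme of anthocyanin and tannin synthesis, had 3.69 and 3.06 CPM in msh1 TRAP, against 10.01 and 22.5 CPM in WT TRAP (log2 fold change -2.28 ± 0.44, adjusted p = 0.00158). F3H (AT3G51240), which overlaps another locus, changed by -1.31 ± 0.23, adjusted p = 0.000886, and TT4 (AT5G13930), chalcone synthase, by -1.09 ± 0.33, adjusted p = 0.0192. Both msh1 TRAP libraries were below both WT TRAP libraries in all 4, and TT4 fell short without 1 of msh1 TRAP replicate 1 and WT TRAP replicate 2 (log2 fold change -0.67 to -0.40, adjusted p = 0.154 to 0.392) and by DESeq2 (adjusted p = 0.0944). Without WT TRAP replicate 2, 5 of the 17 fell.

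The phloem and cambium lists moved both ways. Of 12 phloem genes 4 rose (33.3%) and 5 fell (41.7%), against 20.8% each way over all genes. The median was 0.11 and ran from 0.01 to 0.18 when 1 TRAP library was left out. SUC2 (AT1G22710), the sucrose loader of companion cells, had 99.2 and 80.5 CPM in msh1 TRAP, against 178 and 304 CPM in WT TRAP (log2 fold change -1.43 ± 0.22, adjusted p = 0.000405). SEOA (AT3G01670), a sieve element filament gene, and AHA3 (AT5G57350), a proton pump gene, changed by -1.48 and -1.34. NAC45 (AT3G03200), a regulator of sieve element enucleation, had 43.3 and 53.7 CPM in msh1 TRAP, against 15.3 and 15.5 CPM in WT TRAP (log2 fold change 1.66 ± 0.19, adjusted p = 6.96e-05). Thus SUC2 was low and NAC45 high in both msh1 libraries, but NAC45 overlaps GSTF11, and reads of the 2 genes cannot be told apart.

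Of 8 cambium genes 2 rose (25%) and 1 fell (12.5%), shares near the 20.8% of all genes (median 0.25). Rises numbered 4 without msh1 TRAP replicate 1 and 1 without msh1 TRAP replicate 2 or WT TRAP replicate 1. Falls numbered 2 without WT TRAP replicate 1 and none without msh1 TRAP replicate 2 or WT TRAP replicate 2. WOX4 (AT1G46480), a promoter of cambial division, had 14.0 and 25.9 CPM in msh1 TRAP, against 6.93 and 8.11 CPM in WT TRAP (log2 fold change 1.41 ± 0.28, adjusted p = 0.00202). LBD4 (AT1G31320) changed by 0.89 ± 0.29, adjusted p = 0.0276 and the vascular regulator HB-8 (AT4G32880) by -0.60 ± 0.19, adjusted p = 0.0269, and neither passed with the length trend removed. LBD4 fell short without 1 of msh1 TRAP replicate 2 and WT TRAP replicate 1 (log2 fold change 0.36 to 0.60, adjusted p = 0.184 to 0.368), and HB-8 fell short without 1 of msh1 TRAP replicate 2 and WT TRAP replicate 2 (log2 fold change -0.41 to -0.33, adjusted p = 0.114 to 0.269) and with TRAP fitted alone (adjusted p = 0.0562).

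Nuclear photosynthesis genes were called in both directions. Of 48 genes of the photosystems and Rubisco, 26 rose (54.2%, against 20.8% of all tested) and 14 fell (29.2%), with a median of 0.56, and with the length trend removed 17 rose and 16 fell. PETE2 (AT1G20340), plastocyanin, had 3900.1 and 5449 CPM in msh1 TRAP, against 1359 and 1889.8 CPM in WT TRAP (log2 fold change 1.52 ± 0.21, adjusted p = 0.000213). RBCS1B (AT5G38430), a Rubisco small subunit, had 951 and 1221 CPM in msh1 TRAP, against 385 and 394 CPM in WT TRAP (log2 fold change 1.48 ± 0.18, adjusted p = 7.78e-05). PSAH2 (AT1G52230), a photosystem I subunit, changed by 1.45 ± 0.22, adjusted p = 0.000293. LHCB2.3 (AT3G27690), a light-harvesting protein, had 88.4 and 132 CPM in msh1 TRAP, against 206.6 and 383 CPM in WT TRAP (log2 fold change -1.42 ± 0.28, adjusted p = 0.00179).

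The first 3 were higher and LHCB2.3 lower in both msh1 libraries, and the family members share sequence, so their split is uncertain. Without msh1 TRAP replicate 2 or WT TRAP replicate 1, 17 of the 48 rose, and 7 fell without WT TRAP replicate 2. In Total no member rose and 3 of the 48 fell, where 0.821% of all genes rose and 3.07% fell (list median 0.04).

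Of 34 cytosolic ribosomal protein genes 14 rose (41.2%, against 20.8%) and 3 fell (8.82%), and 27 rose without msh1 TRAP replicate 1. The median was 0.43, and 0.66 without msh1 TRAP replicate 1 and 0.16 without msh1 TRAP replicate 2. None fell without msh1 TRAP replicate 1 or WT TRAP replicate 2, and 5 fell without msh1 TRAP replicate 2. RPL23AB (AT3G55280), of the large subunit, had 117 and 149 CPM in msh1 TRAP, against 50.2 and 47.2 CPM in WT TRAP (log2 fold change 1.45 ± 0.16, adjusted p = 6e-05). RPL23AA (AT2G39460), RPS21C (AT3G53890) and RPS27B (AT3G61110) changed by 1.27, 1.5 and 1.31. Levels of RPL23AB in both msh1 libraries were more than those in WT, and with the length trend removed 10 members rose with a list median of 0.08. In Total none was called (median 0.25).

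Of 24 jasmonate genes 12 rose in TRAP (50%, against 20.8%) and 2 fell (median 0.92). JAZ proteins are repressors whose genes jasmonate itself induces. JAZ10 (AT5G13220) had 22.3 and 54.5 CPM in msh1 TRAP, against 7.44 and 7.29 CPM in WT TRAP (log2 fold change 2.38 ± 0.43, adjusted p = 0.000979), and JAZ2 (AT1G74950) had 111 and 158 CPM in msh1 TRAP, against 42.3 and 38.3 CPM in WT TRAP (log2 fold change 1.74 ± 0.25, adjusted p = 0.000266). Both stood above WT in both libraries. JAZ7 (AT2G34600) changed by 2.87 ± 0.70, adjusted p = 0.0058 and JAZ8 (AT1G30135) by 2.55 ± 0.77, adjusted p = 0.0183.

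JAZ7 fell short without 1 of msh1 TRAP replicate 2 and WT TRAP replicate 2 (log2 fold change 1.77 to 2.69, adjusted p = 0.0751 to 0.104). JAZ8 fell short without 1 of msh1 TRAP replicate 2, WT TRAP replicate 1 and WT TRAP replicate 2 (log2 fold change 1.18 to 3.0, adjusted p = 0.0582 to 0.335) and with the length trend removed (2.11, adjusted p = 0.0535). In Total no jasmonate gene was called (median 0.26).

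Defensin genes of the PDF1 family, which jasmonate and ethylene induce, were among the steepest rises. PDF1.2 (AT5G44420) had 23.57 and 13.8 CPM in msh1 TRAP, against 3.72 and 1.22 CPM in WT TRAP (log2 fold change 2.97 ± 0.55, adjusted p = 0.00119), and PDF1.3 (AT2G26010) had 10.3 and 5.53 CPM in msh1 TRAP, against 0.770 and 0.405 CPM in WT TRAP (log2 fold change 3.77 ± 0.48, adjusted p = 0.000124). PDF1.2c (AT5G44430) changed by 3.91 ± 0.73, adjusted p = 0.00122. The groups were separate in each, but the copies are nearly identical and their split is uncertain.

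Of 14 auxin response genes 7 rose (50%) and 3 fell (21.4%), against 20.8% each way over all genes. The median was 1.17, and 0.67 without msh1 TRAP replicate 2, and in Total none was called (median -0.02). Leaving out any 1 Total library left 1 TRAP fall, and leaving out WT TRAP replicate 2 left none. IAA2 (AT3G23030), an Aux/IAA repressor gene, had 172 and 243 CPM in msh1 TRAP, against 70.2 and 59.6 CPM in WT TRAP (log2 fold change 1.68 ± 0.22, adjusted p = 0.000139). IAA19 (AT3G15540) had 7.90 and 13.4 CPM in msh1 TRAP, against 3.21 and 3.34 CPM in WT TRAP (log2 fold change 1.70 ± 0.32, adjusted p = 0.00124). IAA3 (AT1G04240) changed by 1.38 ± 0.28, adjusted p = 0.0021 and IAA5 (AT1G15580) by 1.54 ± 0.45, adjusted p = 0.0162. All 4 were above WT in both msh1 libraries, but IAA5 fell short without 1 of msh1 TRAP replicate 2, WT TRAP replicate 1 and WT TRAP replicate 2 (log2 fold change 0.67 to 1.60, adjusted p = 0.0725 to 0.295) and with the length trend removed (1.11, adjusted p = 0.0702).

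Of 9 low-sulfur genes 6 rose (66.7%, against 20.8%) and none fell (median 1.15), and in Total none was called (median 0.49). SDI1 (AT5G48850), which represses glucosinolate synthesis under sulfur limitation, had 25.4 and 61.6 CPM in msh1 TRAP, against 5.77 and 3.14 CPM in WT TRAP (log2 fold change 3.32 ± 0.45, adjusted p = 0.000175). LSU1 (AT3G49580), a small protein induced by low sulfur, had 7.77 and 12.4 CPM in msh1 TRAP, against 3.08 and 0.709 CPM in WT TRAP (log2 fold change 2.48 ± 0.50, adjusted p = 0.00206). LSU2 (AT5G24660) and the serine hydroxymethyltransferase gene SHM7 (AT1G36370) changed by 1.83 ± 0.33, adjusted p = 0.000952 and 1.36 ± 0.27, adjusted p = 0.00167. In all 4 the msh1 TRAP libraries were the higher ones.

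Of 9 cytokinin response genes 4 rose (44.4%, against 20.8%) and none fell (median 0.52). ARR7 (AT1G19050), a type-A response regulator, had 52.4 and 61.7 CPM in msh1 TRAP, against 35.2 and 33.5 CPM in WT TRAP (log2 fold change 0.73 ± 0.16, adjusted p = 0.00333), and with the length trend removed it changed by 0.32, adjusted p = 0.113. ARR8 (AT2G41310) had 4774 and 6358 CPM in msh1 TRAP, against 1756 and 2038 CPM in WT TRAP (log2 fold change 1.55 ± 0.25, adjusted p = 0.000514), but it overlaps another locus and is uncertain. ARR4 (AT1G10470) changed by 0.38 ± 0.14, adjusted p = 0.0451. Its msh1 libraries were above the WT ones, yet it fell short without 1 of msh1 TRAP replicate 2, WT TRAP replicate 1, WT TRAP replicate 2, msh1 Total replicate 1, msh1 Total replicate 2, WT Total replicate 1 and WT Total replicate 2 (log2 fold change 0.27 to 0.44, adjusted p = 0.0562 to 0.151). ARR4 also missed the threshold with upper-quartile factors (adjusted p = 0.0563), no filter (0.0804), DESeq2 (0.057) and TRAP fitted alone (0.208). Without msh1 TRAP replicate 2 or WT TRAP replicate 2, 2 of the 9 rose.

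Cold and abscisic acid genes were split. Of 28 genes 12 rose (42.9%) and 7 fell (25%), against 20.8% each way over all genes. The median was 0.16, and 0.37 without msh1 TRAP replicate 1. In Total none of the 28 rose and 8 fell, where 3.07% of all genes fell (list median -0.41). KIN2 (AT5G15970), a cold- and ABA-induced protein, had 2548 and 4423 CPM in msh1 TRAP, against 656 and 730.1 CPM in WT TRAP (log2 fold change 2.33 ± 0.23, adjusted p = 4.44e-05). COR47 (AT1G20440), a dehydrin, had 1369 and 1959.9 CPM in msh1 TRAP, against 388 and 499 CPM in WT TRAP (log2 fold change 1.91 ± 0.21, adjusted p = 5.86e-05). Both were far above WT in TRAP, and in Total they differed by 0.12 ± 0.22, adjusted p = 0.855 and -0.32 ± 0.20, adjusted p = 0.489 on the log2 scale.

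RD26 (AT4G27410), an ABA-induced NAC factor, changed by 1.75 ± 0.39, adjusted p = 0.00329, and CBF2 (AT4G25470), which drives cold-induced genes, by -1.74 ± 0.62, adjusted p = 0.0382. RD26 fell short without 1 of msh1 TRAP replicate 2 and WT TRAP replicate 2 (log2 fold change 0.96 to 1.42, adjusted p = 0.0591 to 0.0626). CBF2 fell short without 1 of msh1 TRAP replicate 2, WT TRAP replicate 1 and WT TRAP replicate 2 (log2 fold change -1.77 to -0.97, adjusted p = 0.103 to 0.179) and by DESeq2 (adjusted p = 0.237). The count of falls was 3 without msh1 TRAP replicate 2, 4 without WT TRAP replicate 1 and 2 without WT TRAP replicate 2.

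Of 15 heat genes 3 rose (20%) and 5 fell (33.3%), against 20.8% each way over all genes. The median was -0.39, and -0.17 without msh1 TRAP replicate 1 and -0.19 without WT TRAP replicate 2. In Total none of the 15 rose and 3 fell, where 3.07% of all genes fell (list median -0.62). DREB2A (AT5G05410), a stress transcription factor, had 21.8 and 11.2 CPM in msh1 TRAP, against 69.0 and 61.9 CPM in WT TRAP (log2 fold change -1.99 ± 0.33, adjusted p = 0.000555). HSP70 (AT3G12580) changed by -1.45 ± 0.19, adjusted p = 0.000147, whereas the small heat shock gene HSP18.2 (AT5G59720) had 12.7 and 18.8 CPM in msh1 TRAP, against 7.06 and 6.08 CPM in WT TRAP (log2 fold change 1.27 ± 0.24, adjusted p = 0.00145). The coactivator gene MBF1C (AT3G24500), which overlaps another locus, changed by 1.03 ± 0.19, adjusted p = 0.00125. DREB2A and HSP70 were low and HSP18.2 high in both msh1 libraries, and 3 heat genes fell without msh1 TRAP replicate 2.

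Of 16 touch-induced genes 5 rose (31.2%, against 20.8%) and none fell (median 0.48), with 8 rises without WT TRAP replicate 1 and 3 without WT TRAP replicate 2. TCH3 (AT2G41100), a calmodulin-like protein, had 271 and 483 CPM in msh1 TRAP, against 112 and 62.6 CPM in WT TRAP (log2 fold change 2.12 ± 0.37, adjusted p = 0.000763), and it overlaps another locus, as does MYB44 (AT5G67300) (1.34 ± 0.25, adjusted p = 0.00116). WRKY18 (AT4G31800) changed by 1.84 ± 0.39, adjusted p = 0.00259 and WRKY53 (AT4G23810) by 0.97 ± 0.31, adjusted p = 0.0244. In Total none of the 16 rose and 1 fell, where 3.07% of all genes fell (list median -0.51). TCH3 was above WT in both msh1 TRAP libraries. WRKY53 fell short without 1 of msh1 TRAP replicate 2 and WT TRAP replicate 2 (log2 fold change 0.58 to 0.59, adjusted p = 0.222 to 0.241) and with the length trend removed (0.87, adjusted p = 0.0524).

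Of 9 hypoxia genes 5 rose (55.6%, against 20.8%) and 1 fell (median 0.67, with 0.34 to 1.07 when 1 TRAP library was left out), and 2 rose without msh1 TRAP replicate 2 or WT TRAP replicate 1. HB1 (AT2G16060), a phytoglobin that removes nitric oxide, had 6.24 and 8.01 CPM in msh1 TRAP, against 1.15 and 1.52 CPM in WT TRAP (log2 fold change 2.39 ± 0.39, adjusted p = 0.000492), and it rose in Total (2.17 ± 0.36, adjusted p = 0.00462). LBD41 (AT3G02550) and ADH1 (AT1G77120), alcohol dehydrogenase, changed by 1.37 ± 0.25, adjusted p = 0.00116 and 0.71 ± 0.23, adjusted p = 0.0263. The sucrose synthase gene SUS4 (AT3G43190) had 2.04 and 1.65 CPM in msh1 TRAP, against 5.52 and 8.81 CPM in WT TRAP (log2 fold change -1.97 ± 0.33, adjusted p = 0.000651). HB1 was high and SUS4 low in both msh1 libraries, and ADH1 fell short without 1 of msh1 TRAP replicate 2 and WT TRAP replicate 1 (log2 fold change 0.40 to 0.41, adjusted p = 0.194 to 0.235).

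Of 20 salicylic acid and defence genes 4 rose (20%) and 2 fell (10%), and the share of rises is near the 20.8% of all genes. The median was 0.12, and 2 rose without WT TRAP replicate 2. WRKY70 (AT3G56400), a defence regulator, had 161 and 169.7 CPM in msh1 TRAP, against 90.8 and 72.1 CPM in WT TRAP (log2 fold change 1.02 ± 0.16, adjusted p = 0.000359). SARD1 (AT1G73805), an activator of salicylic acid synthesis that overlaps another locus, changed by 1.09 ± 0.22, adjusted p = 0.00182. PBS3 (AT5G13320) and ICS1 (AT1G74710), enzymes of that synthesis, had changes of -0.97 ± 0.17, adjusted p = 0.000824 and -0.73 ± 0.23, adjusted p = 0.0211. WRKY70 was high in both msh1 libraries, and ICS1 fell short without 1 of msh1 TRAP replicate 2, WT TRAP replicate 1 and WT TRAP replicate 2 (log2 fold change -0.74 to -0.56, adjusted p = 0.0701 to 0.0898) and with the length trend removed (-0.50, adjusted p = 0.102). With TRAP fitted alone its adjusted p was 0.0564. In Total none of the 20 genes rose and 2 fell, where 3.07% of all genes fell (list median -0.15).

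Of 16 cell division genes 4 rose (25%, near the 20.8% of all genes) and none fell. The median was 0.32, and -0.06 without msh1 TRAP replicate 2. Without WT TRAP replicate 1 the list held 2 falls. Rises numbered 7 without msh1 TRAP replicate 1 and 2 without msh1 TRAP replicate 2 or WT TRAP replicate 1. KN (AT1G08560), the cytokinesis syntaxin, had 46.4 and 63.8 CPM in msh1 TRAP, against 20.9 and 30.7 CPM in WT TRAP (log2 fold change 1.09 ± 0.20, adjusted p = 0.00124). PCNA1 (AT1G07370), the replication clamp, changed by 0.84 ± 0.18, adjusted p = 0.00305, and by 0.48, adjusted p = 0.0574 with the length trend removed. The cyclin genes CYCA1;1 (AT1G44110) and CYCB1;4 (AT2G26760) changed by 0.62 ± 0.20, adjusted p = 0.0235 and 0.65 ± 0.23, adjusted p = 0.0385. KN was above WT in both msh1 libraries. CYCA1;1 fell short without 1 of msh1 TRAP replicate 2 and WT TRAP replicate 1 (log2 fold change 0.52 to 0.60, adjusted p = 0.0573 to 0.107), and CYCB1;4 fell short without 1 of msh1 TRAP replicate 2, WT TRAP replicate 1, WT TRAP replicate 2, msh1 Total replicate 1 and msh1 Total replicate 2 (log2 fold change 0.38 to 0.86, adjusted p = 0.0521 to 0.273). By DESeq2 their adjusted p-values were 0.0623 for CYCA1;1 and 0.0701 for CYCB1;4, and with TRAP fitted alone they were 0.0777 for CYCA1;1 and 0.0743 for CYCB1;4.

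Most morning clock genes fell in both kinds of RNA. CCA1 and LHY are the MYB repressors that peak at dawn, and of 14 list genes 9 fell and 2 rose in TRAP (median -0.99), against 9 falls and no rise in Total (median -1.27). The falls in TRAP were 64.3% of the list, against 20.8% of all genes, and 3.07% of all genes fell in Total. With the length trend removed 6 fell and 2 rose in TRAP (median -0.62). CCA1 (AT2G46830) had 3.31 and 1.53 CPM in msh1 TRAP, against 17.4 and 21.3 CPM in WT TRAP (log2 fold change -3.01 ± 0.33, adjusted p = 5.58e-05). PRR9 (AT2G46790), a repressor of CCA1 and LHY, had 2.17 and 1.41 CPM in msh1 TRAP, against 13.1 and 12.7 CPM in WT TRAP (log2 fold change -2.85 ± 0.37, adjusted p = 0.000139). LHY (AT1G01060) had 3.06 and 4.24 CPM in msh1 TRAP, against 8.34 and 9.02 CPM in WT TRAP (log2 fold change -1.24 ± 0.34, adjusted p = 0.0106). The msh1 libraries were the lower ones in all 3.

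LHY fell short without 1 of msh1 TRAP replicate 1 and WT TRAP replicate 2 (log2 fold change -1.16 to -0.97, adjusted p = 0.0704 to 0.0712) and with the length trend removed (-0.70, adjusted p = 0.144). RVE2 (AT5G37260), a related MYB gene, had 79.7 and 41.9 CPM in msh1 TRAP, against 30.2 and 20.6 CPM in WT TRAP (log2 fold change 1.27 ± 0.27, adjusted p = 0.00281) and was the largest rise of the list. Harvest time is not given in the sources used here, so a difference in sampling time cannot be told apart from genotype.

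Of 13 afternoon and evening genes 5 rose (38.5%) and 4 fell (30.8%), against 20.8% each way over all genes. The median was 0.07, and none was called in Total (median 0.23). ELF4 (AT2G40080), of the evening complex, had 17.5 and 12.2 CPM in msh1 TRAP, against 4.11 and 3.75 CPM in WT TRAP (log2 fold change 1.92 ± 0.28, adjusted p = 0.000272), and its effect differed from that in Total (1.64 ± 0.39, adjusted p = 0.0166). GI (AT1G22770), which peaks in the afternoon, had 155 and 89.5 CPM in msh1 TRAP, against 289 and 332 CPM in WT TRAP (log2 fold change -1.35 ± 0.24, adjusted p = 0.000803). CHE (AT5G08330), which binds the CCA1 promoter, changed by 1.13 ± 0.20, adjusted p = 0.000966, and PRR5 (AT5G24470) by -1.18 ± 0.31, adjusted p = 0.00933. ELF4 was high and GI low in both msh1 libraries.

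PRR5 fell short without WT TRAP replicate 2 (log2 fold change -1.03, adjusted p = 0.0763). Without msh1 TRAP replicate 2, 3 of the 13 rose, and without WT TRAP replicate 2, 3 rose and 2 fell. The evening element AAAATATCT, searched on both strands, was present in the upstream windows of 5 of the 13 evening genes (38.5%), 1 of the 14 morning genes (7.14%) and 2.87% of all windows. Both lists hold known clock genes, so these shares describe the windows and are no independent test of the element.

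Of 29 DNA methylation genes 16 fell (55.2%, against 20.8% of all tested) and 1 rose (median -0.79), and none was called in Total (median 0.00). The list's median transcript was 3471 nt, and 48.9% of all genes with transcripts of 3000 to under 4000 nt fell. For the list, with the length trend removed 6 fell and 3 rose (median -0.28). AGO4 (AT2G27040), the Argonaute of RNA-directed DNA methylation, had 35.9 and 33.6 CPM in msh1 TRAP, against 67.4 and 125 CPM in WT TRAP (log2 fold change -1.47 ± 0.24, adjusted p = 0.00059). MET1 (AT5G49160), the CG methyltransferase, had 21.0 and 20.3 CPM in msh1 TRAP, against 38.6 and 63.6 CPM in WT TRAP (log2 fold change -1.31 ± 0.21, adjusted p = 0.000511). DME (AT5G04560), a DNA demethylase, had 37.2 and 30.1 CPM in msh1 TRAP, against 89.9 and 93.0 CPM in WT TRAP (log2 fold change -1.44 ± 0.16, adjusted p = 5.49e-05).

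All 3 were lower in both msh1 libraries. NRPE1 (AT2G40030), the largest subunit of RNA polymerase V, changed by -1.62 ± 0.21, adjusted p = 0.000143. With the length trend removed the values were -0.96, adjusted p = 0.00755 for AGO4, -0.52, adjusted p = 0.0643 for MET1, -0.45, adjusted p = 0.0254 for DME and -0.67, adjusted p = 0.0163 for NRPE1. RDM1 (AT3G22680), of the same pathway and the one member that rose, had 19.2 and 16.7 CPM in msh1 TRAP, against 11.3 and 8.92 CPM in WT TRAP (log2 fold change 0.84 ± 0.22, adjusted p = 0.00909), and it fell short without WT TRAP replicate 2 (log2 fold change 0.69, adjusted p = 0.0784).

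Genes of organelle DNA maintenance were called both ways in TRAP. Of 19 genes 8 fell (42.1%) and 6 rose (31.6%), against 20.8% each way over all genes (median -0.41). With the length trend removed 1 fell and 2 rose (median -0.15). In Total 3 rose, where 0.821% of all genes rose, and none fell (median 0.30). For 8 of the 19 genes the effect was lower in TRAP than in Total by its own test, against 6.61% of all genes. The length trend was left in for that test. GYRB1 (AT3G10270), an organelle gyrase subunit, had 41.7 and 45.7 CPM in msh1 TRAP, against 79.0 and 112 CPM in WT TRAP (log2 fold change -1.13 ± 0.18, adjusted p = 0.000396). RPOTMP (AT5G15700), a phage-type RNA polymerase of both organelles, had 16.6 and 11.7 CPM in msh1 TRAP, against 24.6 and 34.2 CPM in WT TRAP (log2 fold change -1.07 ± 0.21, adjusted p = 0.00192). ODB1 (AT1G71310), a single-strand binding protein of mitochondrial recombination, had 17.3 and 20.1 CPM in msh1 TRAP, against 11.5 and 8.004 CPM in WT TRAP (log2 fold change 0.95 ± 0.27, adjusted p = 0.0128). GYRB1 and RPOTMP were low and ODB1 high in both msh1 libraries.

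With the length trend removed, GYRB1 changed by -0.72, adjusted p = 0.00686 and RPOTMP by -0.40, adjusted p = 0.11. ODB1 fell short without 1 of msh1 TRAP replicate 2 and WT TRAP replicate 2 (log2 fold change 0.72 to 0.79, adjusted p = 0.0863 to 0.128). Without msh1 TRAP replicate 2, 1 of the 19 rose, and without WT TRAP replicate 2, 2 rose and 4 fell.

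The glucosinolate genes that were called mostly rose in TRAP and all fell in Total. Of 28 genes 9 rose (32.1%) and 2 fell (7.14%) in TRAP, against 20.8% each way over all genes (median 0.25). In Total none rose and 10 fell, where 3.07% of all genes fell (median -0.62). For 9 of the 28 genes the effect was higher in TRAP than in Total by its own test, against 9.01% of all genes. IPMI2 (AT2G43100), of methionine chain elongation, had 411 and 345 CPM in msh1 TRAP, against 75.6 and 91.0 CPM in WT TRAP (log2 fold change 2.18 ± 0.20, adjusted p = 3.3e-05). In Total it had 42.1 and 60.7 CPM in msh1 Total, against 85.4 and 96.8 CPM in WT Total (-0.82 ± 0.19, adjusted p = 0.0334). It was thus high in TRAP and low in Total, and the effects differed by 3.0 ± 0.28, adjusted p = 0.000599.

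GSTU20 (AT1G78370), a glutathione S-transferase of the core pathway, had 1684 and 1512 CPM in msh1 TRAP, against 365 and 355 CPM in WT TRAP (log2 fold change 2.15 ± 0.18, adjusted p = 2.82e-05). GSTF11 (AT3G03190), the other one, changed by 1.61 ± 0.21, adjusted p = 0.000124 and overlaps NAC45. MAM3 (AT5G23020), a methylthioalkylmalate synthase, had 0.637 and 0.471 CPM in msh1 TRAP, against 5.77 and 7.29 CPM in WT TRAP (log2 fold change -3.55 ± 0.56, adjusted p = 0.000439), and AOP3 (AT4G03050), a side-chain dioxygenase, changed by -4.47 ± 0.73, adjusted p = 0.00054. GSTU20 was high and MAM3 low in both msh1 libraries, and both MAM3 and AOP3 fell in Total as well (-2.75 ± 0.47, adjusted p = 0.00533 and -3.46 ± 0.52, adjusted p = 0.00216).

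**Figure D5:**
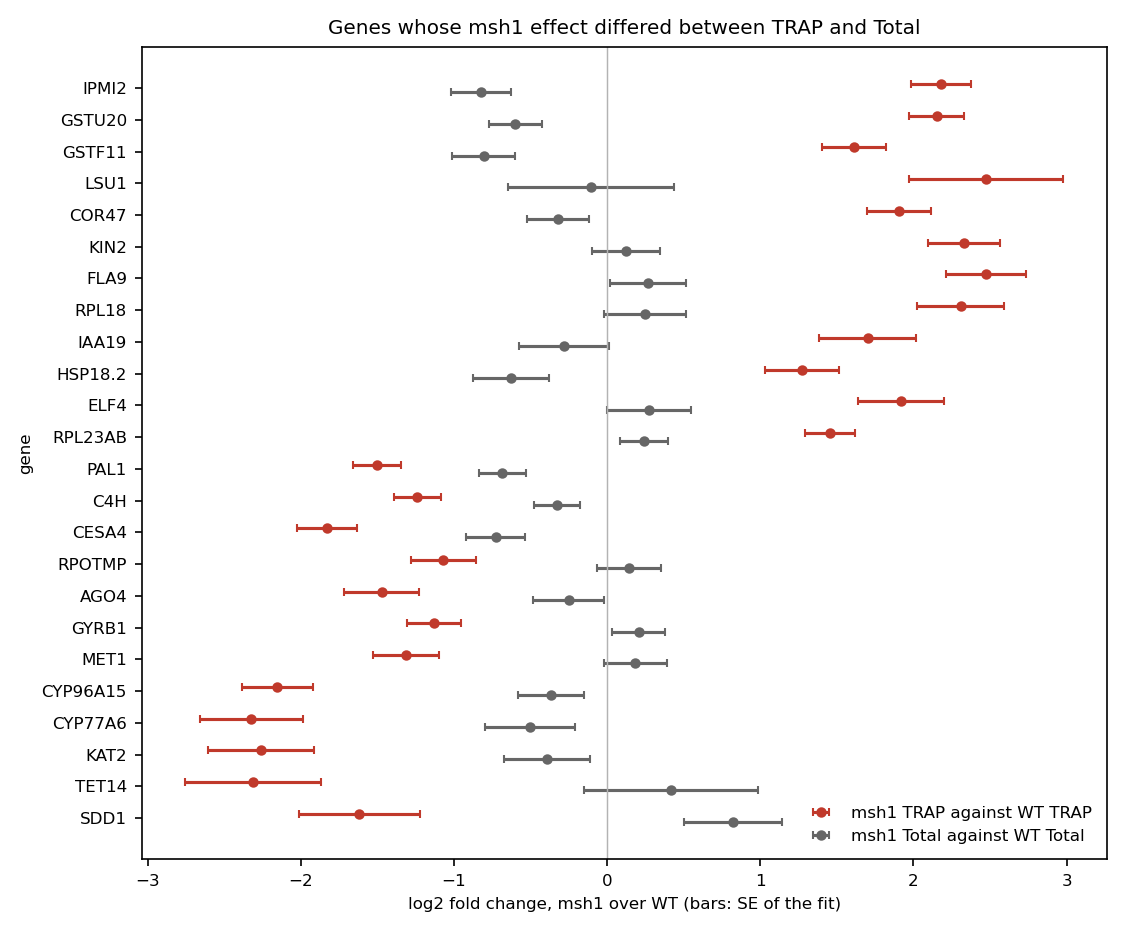
log2 fold change (msh1 over WT) with SE of the fit for 24 named genes whose effect differed between the 2 kinds of RNA, in TRAP (red) and Total (grey), 2 libraries per group. IPMI2 changed by 2.18 in TRAP and -0.82 in Total, and CYP96A15 by -2.15 in TRAP and -0.37 in Total.

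The test of the difference between effects, TRAP minus Total, called 3312 genes (15.6%), 1910 with a higher effect in TRAP (9.01%) and 1402 with a lower one (6.61%). Of the TRAP rises 1826 (41.5%) were among them and of the TRAP falls 1320 (29.9%). This count was 1009 to 5575 when 1 library was left out, with 5575 without msh1 TRAP replicate 1 and 1009 without WT Total replicate 2, and it was 1712 with the length trend removed.

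The remaining steep rises were of mixed function. BT2 (AT3G48360), a BTB and TAZ domain scaffold that responds to sugar and nitrogen status, had 319 and 587 CPM in msh1 TRAP, against 62.6 and 39.2 CPM in WT TRAP (log2 fold change 3.16 ± 0.39, adjusted p = 9.83e-05), and it rose in Total (2.66 ± 0.38, adjusted p = 0.00157). PCC1 (AT3G22231), a small pathogen- and clock-regulated protein, had 212 and 436 CPM in msh1 TRAP, against 40.8 and 61.7 CPM in WT TRAP (log2 fold change 2.66 ± 0.32, adjusted p = 8.12e-05). FLA9 (AT1G03870), a fasciclin-like arabinogalactan protein, had 90.6 and 161 CPM in msh1 TRAP, against 18.5 and 26.5 CPM in WT TRAP (log2 fold change 2.48 ± 0.26, adjusted p = 4.92e-05). BNS (AT1G73177), a subunit of the anaphase-promoting complex, changed by 2.49 ± 0.40, adjusted p = 0.000478. These 4 genes were chosen among those whose groups do not overlap.

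A list of 9 genes chosen from earlier results of these same samples, as those most enriched by the capture, is not independent evidence of its direction: 2 fell (22.2%, against 20.8% of all tested) and none rose (median -0.40). Without msh1 TRAP replicate 2, 6 fell (median -0.96), without WT TRAP replicate 1, 4 fell, and without msh1 TRAP replicate 1, 2 rose and 2 fell (median -0.11). SBT5.4 (AT5G59810), a subtilase gene, had 8.15 and 18.7 CPM in msh1 TRAP, against 57.9 and 84.0 CPM in WT TRAP (log2 fold change -2.39 ± 0.30, adjusted p = 0.000107). TET14 (AT2G01960), a tetraspanin gene, had 2.29 and 1.77 CPM in msh1 TRAP, against 12.1 and 8.21 CPM in WT TRAP (log2 fold change -2.31 ± 0.44, adjusted p = 0.00147). Both were lower in both msh1 libraries, and the other 7 members did not pass the threshold, with log2 fold changes between -0.63 and 0.25.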

How the data were processed

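Floral stem RNA of 8 libraries, 2 per group, was prepared with TruSeq v2 and sequenced as paired 100 bp reads, per the labels' protocols. The authors deposited raw read counts per locus, 1 table a library, with no normalization. The submitters' processing notes name TAIR10 and DESeq2, while no aligner or counting tool is named there or in the labels. The preparation does not mark strand, so overlapping genes cannot be told apart. The 5 closing lines of each table, which name no gene, held 54.34 to 58.14% of the listed reads and were left out. The 285 organelle loci held 0 counts.

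The nuclear counts of all 8 libraries were fitted with edgeR 4.0.16 in R 4.3.3 (TMM factors, filterByExpr, glmQLFit and glmQLFTest, 4 group means), and p-values were adjusted by Benjamini-Hochberg over 21202 genes. Contrasts were msh1 TRAP minus WT TRAP, msh1 Total minus WT Total, and their difference. The length trend was a loess fit (span 0.5) of each gene's log2 CPM minus its mean over libraries on log2 transcript length, made per library and entered as offsets. The procedure was tested on simulated data. DESeq2 1.42.0, other factors, no filter, each fraction alone, a replicate block and leaving out each library were alternatives. Annotation and sequence came from RefSeq TAIR10.1, whose nuclear sequence is that of TAIR10.

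The members and the 29 gene lists were chosen with earlier results of these data known, and their directions are not independent of those. Named genes are MSH1, RPL18, the 15 largest rises and 15 largest falls with a symbol, at least 5 CPM and groups that do not overlap, and up to 4 members past the threshold per list. Others are said to have been chosen after their values were seen, or named to complete a count: AOX1A, NDB3, NAC013, NDA1, NDB2, OM66, DIC2, ATML1, PDF2, LTP1, LTPG1, LTPG2 and RDM1. Intervals and floors cover counting error only.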

Additional observations from a re-analysis of the deposited data

Results flagged for a closer look

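The effect of msh1 differed between TRAP and Total for 3312 genes by edgeR's test of the difference itself, and the named genes among them are given here with the log2 effect in TRAP minus that in Total. A positive value stands for a higher effect in TRAP. Among the captured and structural genes the difference was 2.06 for RPL18, 1.22 for RPL23AB, 0.88 for RPL23AA, 1.27 for RPS21C, 1.04 for RPS27B, 2.21 for FLA9, 1.95 for BNS and -2.73 for TET14. Among glucosinolate, sulfur and cold genes the difference was 3.0 for IPMI2, 2.75 for GSTU20, 2.42 for GSTF11, 2.58 for LSU1, 2.11 for SDI1, 2.21 for KIN2 and 2.23 for COR47. Among hormone, stress and clock genes the difference was 1.98 for IAA19, 1.34 for IAA2, 1.34 for JAZ2, 1.99 for ARR8, 1.29 for MYB44, 0.72 for WRKY70, 1.90 for HSP18.2, 0.97 for MBF1C, -1.43 for SUS4, 1.49 for PCC1, 1.64 for ELF4 and 1.21 for UPOX. Among photosynthesis, phloem and cambium genes the difference was 1.21 for PETE2, 1.45 for PSAH2, 0.85 for RBCS1B, -1.19 for SUC2, -1.58 for SEOA, 2.12 for NAC45 and 1.89 for WOX4. Among epidermis and stomatal genes the difference was -1.82 for CYP77A6, -1.79 for CYP96A15, -1.56 for CYP86A7, -1.26 for KCS2, 0.94 for LTPG2, -1.87 for KAT2, -1.72 for SLAC1, -2.44 for SDD1 and -1.47 for ERL1. Among wall and lignin genes the difference was -1.10 for CESA4, -0.82 for CESA7, -0.77 for CESA8, -0.82 for PAL1, -1.05 for PAL4 and -0.91 for C4H. Among DNA methylation and organelle DNA genes the difference was -1.22 for AGO4, -1.5 for MET1, -1.29 for DME, -1.09 for NRPE1, -1.34 for GYRB1 and -1.21 for RPOTMP. Among genes of the steepest falls the difference was -3.92 for GAMT1, -3.96 for CYP86B1, -2.97 for PAP85 and -1.89 for CRA1. The values of GAMT1 and CYP86B1 rest on 1 count over both msh1 TRAP libraries and depend on the prior count of the fit.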

How the results depend on the processing

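The counts of calls, the gene lists and the named genes were recomputed under 16 alternatives, except that the difference between effects had 15, since it needs both kinds of RNA. Length classes, annotated classes, DUF295 loci and motif shares were not recomputed. With the length trend removed 2819 genes fell in TRAP, and 2541 with the replicate block as well. In Total, 1770 genes were called with no filter on low counts (517 higher, 1253 lower) and 2708 when the 4 Total libraries were fitted alone (1030 higher, 1678 lower), and 346 were higher with the length trend removed. The difference between effects gave 1712 calls with the length trend removed (1148 higher, 564 lower) and 1245 with the replicate block as well (861 higher, 384 lower). Leaving out 1 library at a time gave 5835 to 9517 TRAP calls (3166 to 5160 higher, 2669 to 4357 lower), 219 to 1650 Total calls (41 to 634 higher, 175 to 1063 lower) and 1009 to 5575 calls of the difference (737 to 3266 higher, 272 to 2309 lower). A group left with 1 library is assumed to vary like the others. DESeq2 gave 7590 TRAP calls, upper-quartile factors 8890 and the 4 TRAP libraries fitted alone 6771.

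The replicate numbers are shared between groups, and correlations of same-numbered deviations were -0.243 to 0.083. With 2 libraries a group the deviations are equal and opposite, so a negative value is a positive one for libraries of different number. These values therefore cannot show whether libraries of different groups share plants or a batch. With the replicate block, 8285 genes were called in TRAP, 656 in Total and 2600 for the difference, and CBF2 (adjusted p = 0.0551), CYCB1;4 (0.051) and ARR4 (0.0708) fell short. ERL1 did so with the block and the length trend removed (0.0515). Over the 150 named genes and 16 alternatives, 2272 values kept direction and side of the threshold, 124 fell short of it, and 4 reversed. The reversals were ATML1 at 0.007 and PDF2 at 0.010 with the length trend removed, and 0.008 and 0.010 with the replicate block as well. Of the counts per gene list, 826 stayed within 1.5 times the reported count and 102 did not. The cause of these shifts was not tested. A floor of 3 counts stands for 0.277 to 0.396 CPM in the TRAP libraries, which limits genes near that level.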

Other observations

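Genes annotated with domain DUF295, a plant family of mostly undescribed proteins, were chosen after their values were seen. Of 19 such loci tested, 9 rose in TRAP and none fell (47.4% rose, against 20.8% of all genes). In Total 8 rose, where 0.821% of all genes rose, and none fell. Of the 9 rises in TRAP, 6 lay on chromosome 5, among them AT5G54550 and AT5G53230. Whether the rises go with the family or with the position of its loci was not tested. AT5G54550 had 8.54 and 7.30 CPM in msh1 TRAP, against 0.128 and 0.101 CPM in WT TRAP. Both WT libraries held 1 count each, and the ratio of msh1 over WT was 69.7 (95% counting interval 18.9 to 582). AT5G53230 had 6.11 and 7.07 CPM in msh1 TRAP, against 0.128 and 0.304 CPM in WT TRAP (log2 fold change 4.80 ± 0.52, adjusted p = 6.89e-05).

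A noncoding RNA locus, AT2G01422, on chromosome 2 from 183940 to 184734, was close to absent in msh1. It had 0.127 and 0 CPM in msh1 TRAP, against 20.8 and 17.2 CPM in WT TRAP, and 0.0933 and 0.237 CPM in msh1 Total, against 11.5 and 15.3 CPM in WT Total. Over both TRAP libraries it held 1 count in msh1 and 332 in WT, a ratio of WT over msh1 of 307 (54.7 to 12200). Both genotypes were fully separate in each kind of RNA. This locus was chosen after its values were seen.

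By annotated class, none of 20 snRNA loci rose and 4 fell in TRAP (median log2 fold change -0.75). Over all genes tested, 20.8% rose and 20.8% fell, so the share of snRNA falls was near that of all genes. Of 74 snoRNA loci 5 rose and 2 fell (median 0.08). Of 1004 lncRNA loci 148 rose and 145 fell (median -0.01), against 4221 rises and 4247 falls among 19900 protein-coding genes (median -0.02).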
